A study of Mus musculus with 15 samples.

Results

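The transcripts described here are 10 genes of the Notch pathway, Notch1, Notch2, Notch3, Dll1, Dll3, Jag1, Lfng, Hes1, Hes5 and Hey1, together with the Notch1 antibody. They were chosen by name, as 10 of the 30534 gene columns and 1 of the 22 antibodies, and not by their levels. The choice was made with earlier results of these data known. The study barcoded thin frozen sections of mouse embryos in place, so that each small square of tissue, called a pixel, has its own counts. There were 11 transcript libraries and 4 antibody libraries. The transcript libraries came from embryonic day 10 (E10) with 10 µm pixels (2 libraries), 25 µm pixels (1) or 50 µm pixels (3), from E11 with 10 µm (2) or 25 µm pixels (2), and from E12 with 50 µm pixels (1). The 4 antibody libraries were of E10 embryos and were matched by title to 4 of the E10 transcript libraries (10 µm replicate 2, 25 µm replicate 1, and 50 µm replicates 1 and 3). All embryos were untreated as far as the labels say, and the labels give no strain or sex. Nothing in the labels says whether libraries of a group came from separate embryos, so p-values measure the spread between these sections, which also differ in the region cut.

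Notch receptors sit at the cell surface and are switched on by ligands of the Delta and Jagged families on a neighbouring cell. Activated receptors release an intracellular fragment that joins the DNA-binding protein RBPJ and turns on repressors of the Hes and Hey families. In the embryonic nervous system this exchange keeps progenitors from becoming neurons, in somites it takes part in the segmentation clock, and in vessels it takes part in arterial identity.

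In the GENCODE M21 annotation of GRCm38, the receptor genes are Notch1 at chr2:26457903-26516663 (minus strand), Notch2 at chr3:98013527-98150361 (plus strand) and Notch3 at chr17:32120820-32166852 (minus strand). The ligand genes are Dll1 at chr17:15367354-15376872 (minus strand), Dll3 at chr7:28293553-28302238 (minus strand) and Jag1 at chr2:137081456-137116644 (minus strand). The modifier Lfng lies at chr5:140607320-140615545 (plus strand), and the effector genes are Hes1 at chr16:30064384-30067796 (plus strand), Hes5 at chr4:154960923-154962371 (plus strand) and Hey1 at chr3:8663359-8667256 (minus strand). All 10 are annotated as protein-coding, and the tables hold 1 column per gene symbol.

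The promoters of Hes5 and Lfng are printed because the RBPJ core motif TGGGAA was found in them, and because both genes differed between pixel classes below. The sequences are the 250 bases before the annotated start in RefSeq (build GRCm38.p6), 5′ to 3′ on the gene's strand, with TGGGAA and its reverse complement TTCCCA in capitals. The RefSeq start of Lfng lies slightly downstream of the GENCODE one.
Hes5, chr4:154960673-154960922, plus strand: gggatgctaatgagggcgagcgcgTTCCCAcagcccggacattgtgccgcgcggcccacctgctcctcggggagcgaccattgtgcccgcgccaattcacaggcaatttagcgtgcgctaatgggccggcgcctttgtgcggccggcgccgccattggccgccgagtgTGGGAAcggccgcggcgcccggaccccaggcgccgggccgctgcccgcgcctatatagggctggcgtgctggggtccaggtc
Lfng, chr5:140607091-140607340, plus strand: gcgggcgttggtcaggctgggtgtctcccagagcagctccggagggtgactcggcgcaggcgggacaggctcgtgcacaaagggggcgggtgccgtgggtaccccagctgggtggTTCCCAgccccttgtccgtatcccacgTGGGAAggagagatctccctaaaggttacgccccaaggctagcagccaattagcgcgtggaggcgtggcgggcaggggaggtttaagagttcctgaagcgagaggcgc
Each promoter held 2 matches in opposite orientation, 144 bases apart in Hes5 and 27 bases apart in Lfng. RefSeq promoters were matched for 8 of the 10 genes (9 records), and 2 of these 9 held the motif. Of 32851 RefSeq promoters of the same length, 21.6% held it on either strand. A match is a description of these letters and was not tested as a binding site.

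Pixels counted as tissue when their total reached 0.1 times the 95th percentile within the library, which left 829 to 2271 pixels and between 1563489 and 11998765 counts in each library. The median count per tissue pixel ran from 843.5 (E10 25 µm) to 11332 (E10 50 µm replicate 1), so low genes are least precise in the E10 25 µm and E11 10 µm libraries. Marker lists showed that the sections hold different regions. Summed neural progenitor markers (Sox2, Sox1, Sox3, Nes, Pax6, Fabp7 and Msi1) were 143 CPM (counts per 1000000 counts of the library) in E11 10 µm replicate 2 and 394 CPM in E12, against 689 to 2028 CPM in the other 9 libraries. Liver markers were 3817 and 3638 CPM in those same 2 libraries. They were 1224 and 1577 CPM in E11 25 µm replicates 1 and 2, and 8.25 to 137 CPM in the remaining libraries.

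Levels are given in CPM over the tissue pixels of each library, and fewer cells of a type and less RNA per cell cannot be told apart in them. Among the receptors, Notch2 and Notch3 varied least. Notch2 ranged from 32.5 to 63.5 CPM with a median of 47.4 CPM over the 11 libraries, and Notch3 from 26.0 to 64.0 CPM with a median of 52.9 CPM. Notch1 ranged from 8.39 CPM (E11 10 µm replicate 2) to 82.3 CPM (E10 50 µm replicate 1), with a median of 43.2 CPM. Its lowest values were in E11 10 µm replicate 2 and in E12 (16 CPM), the 2 libraries with the fewest neural progenitor markers. The contribution of neural content to this was not tested.

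The Delta ligands varied more than the receptors. Dll1, a ligand that activates Notch, ranged from 1.09 to 41.9 CPM (median 17.8 CPM). Dll3, a divergent Delta protein that acts mostly inside the cell, ranged from 3.65 to 91.0 CPM (median 21.9 CPM). Both were lowest in E11 10 µm replicate 2 and next lowest in E12. Jag1, the Jagged ligand, stayed between 17.9 and 51.3 CPM (median 28.5 CPM). Lfng, a glycosyltransferase that modifies Notch receptors and alters their response to ligands, ranged from 3.28 to 28.4 CPM (median 22.1 CPM).

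The effectors Hes5 and Hes1 had the largest mean CPM of the members (84.8 and 80.1 CPM), and also the largest per exon length. Hes5, a repressor typical of neural progenitors, ranged from 2.19 CPM in E11 10 µm replicate 2 and 8.0 CPM in E12 to 162 CPM in E10 50 µm replicate 3 (median 83.0 CPM). Hes1, a repressor used in many tissues, ranged from 36.8 to 162 CPM (median 76.2 CPM), and E11 25 µm replicate 2 stood at 162 CPM against 39.1 CPM in replicate 1. Hey1, a related repressor known from vessels and heart, ranged from 11.4 to 37.8 CPM (median 20.2 CPM). Divided by exon length, mean levels were 62.2 CPM per kb for Hes5 and 39.3 CPM per kb for Hes1. The other 8 genes lay between 10.6 CPM per kb (Dll3) and 3.01 CPM per kb (Notch1), in the order Dll3, Lfng, Hey1, Notch3, Jag1, Dll1, Notch2, Notch1. The library ranges of all neighbouring genes in this order overlapped. By mean CPM without this division, the order was Hes5, Hes1, Notch3, Notch2, Notch1, Jag1, Dll3, Hey1, Dll1, Lfng. Whether counts rise with exon length in these libraries is not known, so the order per kb is not a ranking of abundance.

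**Figure D1:**
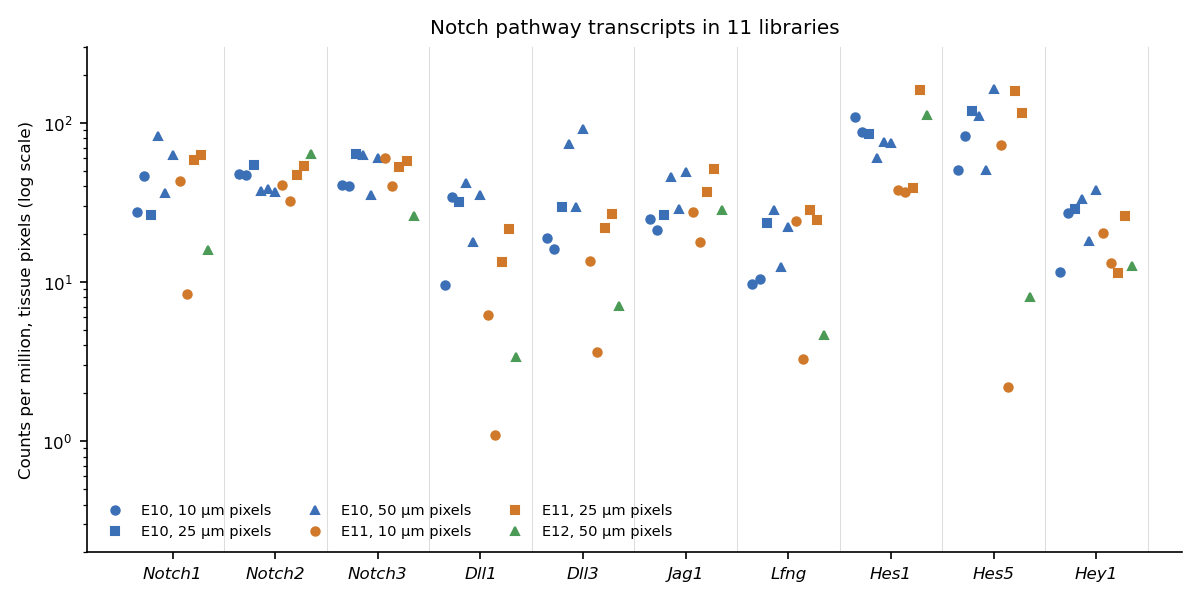
CPM of each gene over tissue pixels (log axis), 1 point per library, coloured by stage and shaped by pixel width. E11 10 µm replicate 2 and E12 are the 2 lowest points for Dll1, Dll3, Lfng, Hes5 and Notch1.

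Stage and pixel width were compared over the 11 libraries with edgeR's quasi-likelihood test on summed counts, adjusted over 18233 genes by Benjamini-Hochberg. Between E11 and E10 (mean of the changes at 10 and 25 µm), 0 of the 10 genes passed adjusted p 0.05, where 3.6% of all genes did. At an unadjusted p under 0.05 there was 1 of the 10 (23.1% of all genes), Dll1, with a log2 change of -1.64 (SE 0.57, adjusted p = 0.127), and DESeq2 also called 0 (12.0% of all genes). Dll1 stood at 13.4 and 21.6 CPM in the E11 25 µm libraries and at 6.22 and 1.09 CPM in the E11 10 µm libraries, against 32.0 CPM at E10 25 µm and 9.58 and 34.3 CPM at E10 10 µm. Both widths therefore show lower E11 values, but at 10 µm with 1 E10 library close to the E11 ones. Between 10 µm and 50 µm at E10, 0 of 10 passed (0.11% of all genes), and between 10 µm and 25 µm at E11, 0 of 10 passed (2.07% of all genes). At an unadjusted p under 0.05 there were 2 and 6 of the 10, where 10.8% and 11.5% of all genes were. DESeq2 called 1 and 2 of the 10, and 4.01% and 4.05% of its genes. The median log2 difference over the 10 genes between 10 and 25 µm at E11 was -1.23, beside -0.03 over all genes, with neural progenitor markers at 904 and 143 CPM in the 10 µm libraries and at 921 and 996 CPM in the 25 µm libraries.

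At 50 µm the single E12 library was set against the 3 E10 libraries, with the lone library assumed to vary like the other groups, so the values compare that library and not the stage. Dll3 passed, as 1 of the 10 genes. It was 74.1, 29.4 and 91.0 CPM in the 3 E10 libraries and 7.08 CPM in the single E12 library, so the E12 value lay below every E10 value. The log2 difference was -3.21 (SE 0.73, adjusted p = 0.046, edgeR), and 2.14% of all genes passed in this comparison. The call was lost without either E10 50 µm replicate 1 or 3 (adjusted p = 0.129 and 0.12) and in 5 other alternatives, all with the same direction. The neural progenitor markers also differed, at 1394 to 2028 CPM in the E10 50 µm libraries and 394 CPM at E12, and their part in this was not tested. Hes5 stood at 110.5, 50.3 and 162 CPM at E10 and 8.0 CPM at E12 without passing (log2 -3.77, SE 1.69, adjusted p = 0.38).

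The members were then placed against tissue. In each library the 25% of tissue pixels with the largest share of counts in a marker list were called high for it (fewer where markers were too sparse, such as 15.6% for progenitor markers in E11 10 µm replicate 2). Counts of high pixels and of the rest were summed per library and compared within libraries, so n is the 11 libraries and never the pixels. No member belongs to a marker list. Pixels can hold several cells, and high and rest pixels differ in mixture and not in purity.

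In pixels high for neural progenitor markers, 6 of the 10 genes were higher than in the rest of the section and none was lower. Among all genes, 13.3% passed (5.77% higher). Hes5, the effector, ranged from 3.57 through a median of 144 to 376 CPM in high pixels and from 1.83 through 45.5 to 137 CPM in the rest, and was higher in 11 of 11 libraries (log2 difference 1.28, SE 0.31, adjusted p = 0.023, edgeR). Notch1, the receptor, ranged from 8.92 through 70.6 to 126 CPM in high pixels and from 8.25 through 30.5 to 70.6 CPM in the rest, and was also higher in 11 of 11 libraries (log2 0.92, SE 0.20, adjusted p = 0.012). The ranges of high and rest pixels overlap across libraries for both genes, because libraries differ in level, while the order within each library was the same in all 11. In E11 10 µm replicate 2 this order rests on few counts (Hes5 at 3.57 and 1.83 CPM, Notch1 at 8.92 and 8.25 CPM).

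The Delta ligands and the glycosyltransferase followed. Dll1 was higher in 10 of 11 libraries (median 25.5 against 9.14 CPM; log2 0.89, SE 0.20, adjusted p = 0.011). The exception was E11 10 µm replicate 2, where Dll1 had 0 counts in the high pixels, which allows up to 5.35 CPM by counting error alone. Lfng was higher in 10 of 11 libraries (median 22.0 against 11.7 CPM; log2 0.88, SE 0.23, adjusted p = 0.024). Dll3 was higher in 10 of 11 libraries (median 35.4 against 15.0 CPM; log2 0.75, SE 0.13, adjusted p = 0.0016), with adjusted p = 0.0601 when markers were scaled before summing.

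Hes1 passed with a small difference (9 of 11 libraries; log2 0.24, SE 0.07, adjusted p = 0.03), which was lost in 10 of 18 alternatives. Jag1 (log2 0.40, SE 0.14, adjusted p = 0.0636), Notch3 (0.20, SE 0.08), Hey1 (0.10, SE 0.15) and Notch2 (-0.18, SE 0.12) did not pass. The median log2 difference over the 10 genes was 0.57, beside 0.01 over all genes tested. Other lists moved with this class. Red cell markers were lower in progenitor-high pixels in 11 of 11 libraries (median 16170 against 25640 CPM), as were endothelium markers (median 210 against 311 CPM), while neuron markers were higher in 8 of 11 libraries. Median depth per pixel was also larger in the high pixels of 10 libraries, by most in E11 25 µm replicates 1 (4041.5 against 2217.5 counts) and 2 (7049 against 3610.5), and its part in the result was not tested. With each pixel thinned to 500 counts, 4 members had enough counts to be tested and 1 of them, Hes5, passed.

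In pixels high for neuron markers (Tubb3, Stmn2, Dcx and others), the ligands led. Dll3 was higher in 11 of 11 libraries, at 3.82 through 47.4 to 129 CPM in high pixels and 3.58 through 13.1 to 76.4 CPM in the rest (log2 1.33, SE 0.13, adjusted p = 5.2e-07, edgeR). Of the 10 genes 5 passed, where 22.7% of all genes did. Jag1 was higher in 9 of 11 libraries (log2 0.37, SE 0.10, adjusted p = 0.0052), a call lost in 2 of 18 alternatives. Dll1 passed narrowly (log2 0.37, SE 0.13, adjusted p = 0.0484) and was lost in 9 of 17 alternatives.

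The other 2 calls were lower values. Notch2, a receptor, was lower in neuron-high pixels of 11 of 11 libraries (median 29.9 against 47.8 CPM; log2 -0.51, SE 0.09, adjusted p = 6.4e-05). Hes1 was lower in 9 of 11 (median 57.9 against 86.7 CPM; log2 -0.37, SE 0.08, adjusted p = 0.0021). Notch1 (log2 0.07, SE 0.16), Lfng (-0.02, SE 0.14), Hes5 (0.29, SE 0.16), Hey1 (0.07, SE 0.12) and Notch3 (-0.22, SE 0.08, adjusted p = 0.063) did not pass. Progenitor-high and neuron-high pixels overlap, since 26.8% to 39.9% of progenitor-high pixels in a library were also neuron-high.

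Comparing pixels high for progenitor markers alone with pixels high for neuron markers alone gave calls on both sides. Hes1, Hes5, Notch1, Lfng and Notch3 were higher on the progenitor side and Dll3 was higher on the neuron side. These are 6 of 10 genes, where 16% of all genes passed. Hes1 was higher on the progenitor side in 11 of 11 libraries (median 94.4 against 58.3 CPM; log2 0.64, SE 0.09, adjusted p = 1.4e-05, edgeR). Hes5 was higher in 11 of 11 (median 136 against 58.6 CPM; log2 1.01, SE 0.22, adjusted p = 0.0109). Its neuron-side count was 0 in E11 10 µm replicate 2, which allows up to 4.93 CPM.

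Notch1 was higher on the progenitor side in 10 of 11 libraries (median 75.6 against 30.7 CPM; log2 0.89, SE 0.18, adjusted p = 0.002). The exception was E12. Lfng was higher in 9 of 11 (log2 0.94, SE 0.21, adjusted p = 0.0031), and Notch3 in 10 of 11 (log2 0.46, SE 0.11, adjusted p = 0.0057). Dll3 was lower on the progenitor side in 10 of 11 libraries (median 23.0 against 37.9 CPM; log2 -0.70, SE 0.13, adjusted p = 0.0003). So Dll3 was higher than in the rest of the section in both marker classes, and higher in the neuron class when the classes were set against each other. Dll1 did not pass (log2 0.48, SE 0.17, adjusted p = 0.0564), nor did Notch2 (0.30), Jag1 (0.02) or Hey1 (0.03).

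**Figure D2:**
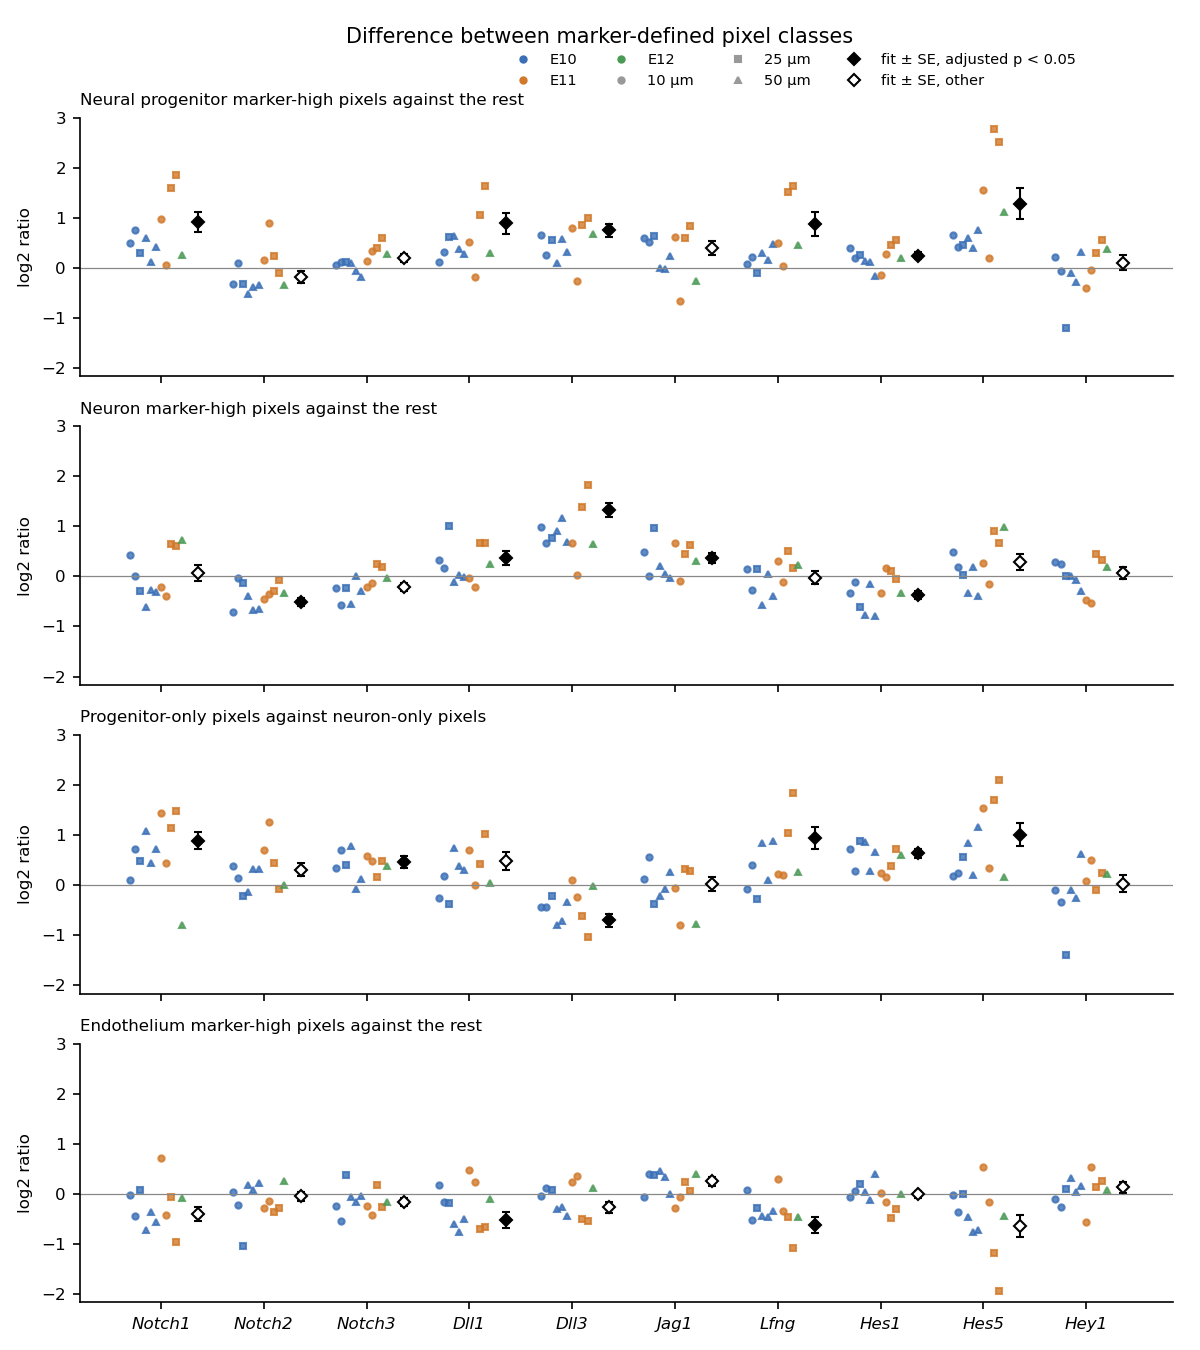
Log2 ratio of each gene between pixel classes, on log2(CPM + 10) for single libraries (small points, coloured by stage) and as the edgeR estimate ± SE (diamonds, filled where adjusted p is under 0.05). Dll3 points upward in the neuron panel in 11 of 11 libraries and downward in 10 of 11 in the progenitor-only against neuron-only panel.

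Vessel-rich pixels showed no member called higher. In pixels high for endothelium markers (Pecam1, Cdh5, Kdr and others), Lfng was lower in 9 of 11 libraries (median 10.5 against 21.9 CPM; log2 -0.61, SE 0.16, adjusted p = 0.0106, edgeR). Dll1 was lower in 8 of 11 (median 11.5 against 20.04 CPM; log2 -0.53, SE 0.16, adjusted p = 0.0275). These are 2 of 10 genes, where 12.9% of all genes passed and 5.52% were lower. The Dll1 call was lost with DESeq2 (adjusted p = 0.113) and without any of E10 50 µm replicates 1, 2 or 3 or E11 25 µm replicates 1 or 2 (adjusted p = 0.0652 to 0.115).

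Jag1 was the member nearest to a higher value in vessel-rich pixels (7 of 11 libraries; median 36.7 against 26.9 CPM; log2 0.25, SE 0.09, adjusted p = 0.073). It passed in 3 of 17 alternatives, among them the top 10% of pixels (log2 0.54, adjusted p = 0.0045). Hes5 (log2 -0.65, SE 0.22) and Notch1 (-0.40, SE 0.14) lay below 0 without passing (adjusted p = 0.0824 and 0.0733). Hey1 (0.13, SE 0.11), Hes1 (-0.01, SE 0.07), Notch2 (-0.05, SE 0.09), Notch3 (-0.17, SE 0.08) and Dll3 (-0.27, SE 0.11) did not pass either. Neural progenitor markers were lower in endothelium-high pixels in 10 of 11 libraries (median 995 against 1137 CPM), mural markers were higher in 10 of 11, and red cell markers in 11 of 11. Their part in the lower Lfng and Dll1 was not tested.

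In pixels high for somite and early muscle markers (Meox1, Tcf15, Uncx and others), 0 of the 10 genes passed, where 2.33% of all genes did. At an unadjusted p under 0.05 there were 4 (13.3% of all genes), all below 0: Lfng (log2 -0.49, SE 0.14, adjusted p = 0.057), Hes5 (-0.38, SE 0.11, adjusted p = 0.0632), Notch1 (-0.33, SE 0.12) and Notch3 (-0.22, SE 0.09). DESeq2 also called 0. Leaving out E11 10 µm replicate 1 gave 3 calls, Notch1, Hes5 and Lfng, all lower. Summed somite markers were low, at 54 to 138 CPM per library, so this class rests on few counts.

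The progenitor difference was larger at E11 than at E10 for 4 genes. Within E10 (6 libraries), Hes5 differed by a log2 value of 0.64 (SE 0.11) between progenitor-high pixels and the rest, and within E11 (4 libraries) by 2.63 (SE 0.16). The difference between these differences was 1.99 (SE 0.20, adjusted p = 3.3e-05, edgeR interaction term). For Dll1 the values were 0.53 at E10 and 2.06 at E11 (interaction 1.53, SE 0.29, adjusted p = 0.0082). For Lfng they were 0.37 and 1.81 (1.44, SE 0.29, adjusted p = 0.0148), and for Notch1 0.58 and 1.78 (1.20, SE 0.21, adjusted p = 0.0062). These are 4 of 10 genes, where 0.824% of all genes passed. Within E10 alone 4 of the 10 genes passed (2.7% of all genes) and within E11 alone 8 of 10 (13.9% of all genes), all higher. For the interaction, the other 6 values were also above 0 without passing (0.28 to 0.73).

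Single libraries show where this came from. Hes5 in high pixels and in the rest stood at 376 and 46.7 CPM in E11 25 µm replicate 1, and at 258 and 37.0 CPM in replicate 2. In E11 10 µm replicate 1 it stood at 144 and 42.4 CPM, and in replicate 2 at 3.57 and 1.83 CPM, which are 2 and 4 counts. Notch1 stood at 113 and 30.5, 126 and 27.7, 71.4 and 31.4, and 8.92 and 8.25 CPM in the same order. At E10, Hes5 ran from 62.8 to 240 CPM in high pixels and from 43.0 to 137 CPM in the rest. On the log2(CPM + 10) scale the E11 libraries held both the largest Hes5 difference (2.77) and the smallest (0.20, in E11 10 µm replicate 2), against 0.39 or more in the 6 E10 libraries.

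The interaction call was lost in 4 of 15 alternatives for Dll1, in 5 of 15 for Lfng and for Notch1, and in none for Hes5. With the top 10% of pixels Hes5 alone passed. Without E11 25 µm replicate 1 Hes5 alone passed (1.75), with Dll1 at 1.65, Lfng at 1.28 and Notch1 at 1.14. Without replicate 2 Hes5 alone passed as well (1.87), with Dll1 at 1.02, Lfng at 1.07 and Notch1 at 0.91. With the 10 and 25 µm libraries alone, Hes5 alone passed as well (2.01, adjusted p = 0.0175), Dll1, Lfng and Notch1 having values of 1.55, 1.59 and 1.00. The contrast of the marker list itself also differed between stages. Progenitor markers were 1.8 to 5.3 times higher in high pixels than in the rest at E10, and 5.5 to 6.6 times at E11 in the 3 libraries where the rest was above 0. The part of this in the interaction was not tested. For the neuron, endothelium and somite classes, 0 of 10 interaction values passed, where 0.0975%, 0% and 0.0657% of all genes did (edgeR). At an unadjusted p under 0.05 there were 6, 1 and 2 of 10, where 7.49%, 5.69% and 6.93% of all genes were.

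Members differed in how regional they were on the section. Moran's I is 0 for no resemblance between neighbouring pixels and rises towards 1 for smooth regions, and depth differs between libraries, so values are compared within a library. Hes5 had the largest value of the 10 genes in 7 of 11 libraries, Dll3 in 3 and Hes1 in 1. The Dll3 libraries include E11 10 µm replicate 2 (0.10), where Dll3 was at 3.65 CPM and seen in under 5% of pixels. Members also differ in counts, whose part in these values was not tested. Hes5 was 0.53 and 0.55 in E11 25 µm replicates 1 and 2, above 99.8% and 99.7% of genes seen in at least 5% of pixels there, and 0.34 in E10 50 µm replicate 3. Where seen in that many pixels, it stood above 93.1% to 99.8% of genes (9 libraries), Dll3 above 90.6% to 97.5% (5), Hes1 above 54.5% to 96.98% (11), Notch1 above 48.9% to 96.9% (8) and Dll1 above 47.9% to 91.7% (5). Notch1 and Dll1 thus ranged from about the middle of all genes to near the top. Dll3 reached 0.23 (E10 50 µm replicate 3) and Notch1 0.23 (E11 25 µm replicate 2). The largest values of Notch2 and Notch3 over the 11 libraries were 0.077 and 0.062.

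**Figure D3:**
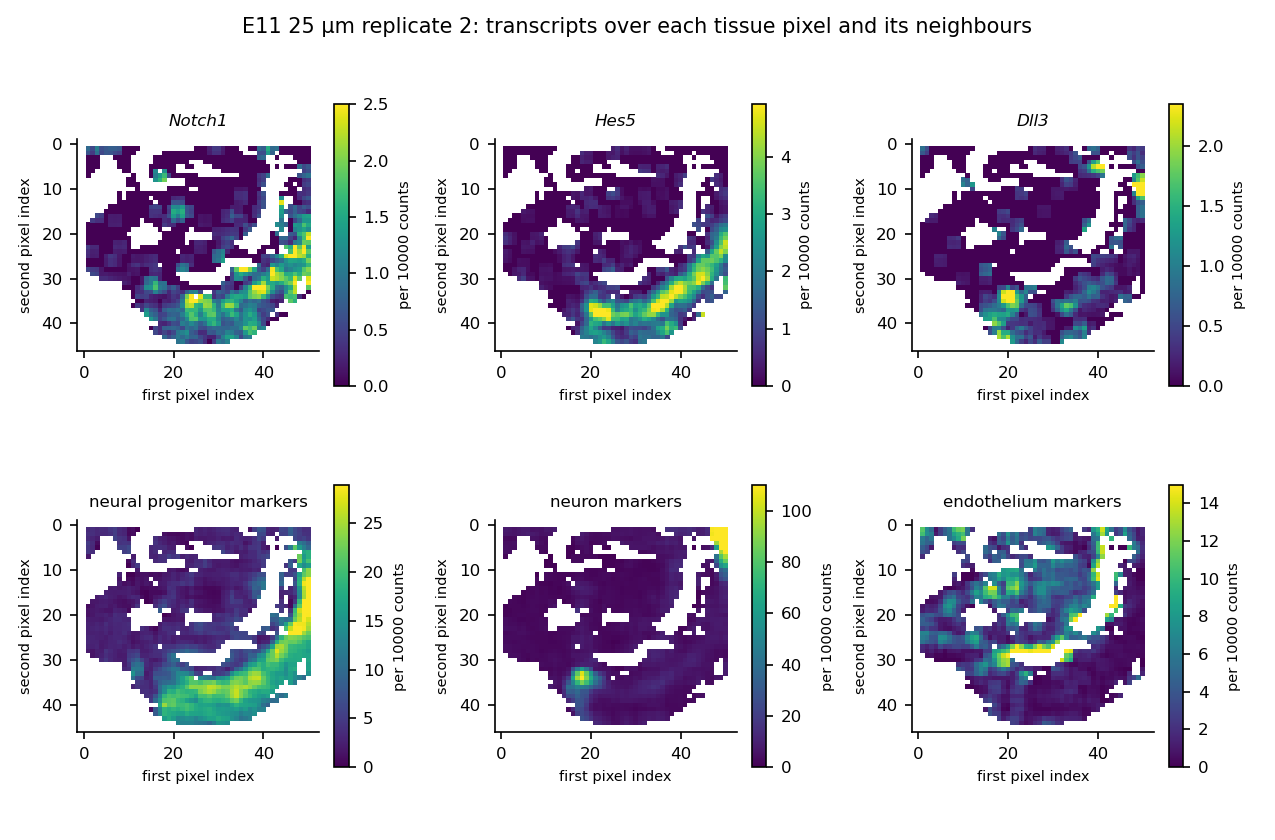
Counts per 10000 over each tissue pixel and its neighbours in E11 25 µm replicate 2, the library with the largest Moran's I for Hes5 (chosen for this after its value was seen); axes are pixel indices. Hes5 (Moran's I 0.55) and Notch1 (0.23) form a curved band where the progenitor markers are high, Dll3 is highest in small patches, including at the neuron marker maximum on the lower left, and endothelium markers lie mostly outside the band.

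Over tiles of 5 by 5 pixels (45 to 100 tiles per library), Pearson r of log2(CPM + 10) was averaged over the 11 libraries as a description. Genes of a tile share its depth and tissue. The largest pairs were Notch1 with Hes5 (mean r 0.42, positive in 10 of 11 libraries), Dll1 with Hes5 (0.36), Notch1 with Dll1 (0.34), Dll3 with Hes5 (0.33) and Lfng with Hes5 (0.30). Notch2 with Hes5 was the lowest (-0.09). Against summed marker lists, Hes5 had a mean r of 0.50 with progenitor markers and -0.43 with mesenchyme markers. Notch1 had 0.45 with progenitor markers, and Dll3 had 0.41 with neuron and 0.36 with progenitor markers. Jag1 had 0.20 with neuron and 0.12 with endothelium markers, and Notch2 had 0.20 with mesenchyme markers.

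The genes most like each member over tiles were taken from 7790 genes with at least 20 CPM. Hes5 was most like Ckb (0.49), Celsr2 (0.49) and Sox2 (0.48), and Notch1 most like Ckb (0.44), Fabp7 (0.43) and Syt11 (0.40). Dll3 was most like Elavl3 (0.45), Nhlh2 (0.44) and Tubb2b (0.42), Dll1 most like Ckb (0.39), Celsr2 and Tubb2b (0.37 each), and Lfng most like Sox2 (0.35), Ccdc177 (0.33) and Rfx4 (0.31). Likeness was weaker for Jag1 (Isl1, 0.21), Hey1 (Maml3, 0.20), Notch2 (Col11a1, 0.27), Notch3 (Plxnb1, 0.28) and Hes1 (Cdk4, 0.27). Sox2 and Fabp7 are in the progenitor list and Elavl3 in the neuron list used for the classes.

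A list of 37 other pathway genes was tested in the same fits. In progenitor-high pixels 3 of 31 tested were higher, Dtx4 (log2 1.13, SE 0.24), Hes6 (0.52, SE 0.13) and Mib1 (0.24, SE 0.06), and 1 was lower, Neurl1a (-0.62, SE 0.19), where 13.3% of all genes passed, so the list's share was near that of all genes. Mib1 encodes a ubiquitin ligase that acts on Notch ligands. In neuron-high pixels 11 of 31 were higher and none lower, where 11.4% of all genes were higher and 11.3% lower, led by Dner (1.54, SE 0.15), Hes6 (0.46), Dtx1 (0.92), Heyl (0.71) and Numbl (0.54). In the comparison of progenitor-only with neuron-only pixels, Dner (-1.16), Heyl (-0.93) and Dlk1 (-0.50) were higher on the neuron side and Dtx4 (0.79) on the progenitor side, 4 of 27 tested, where 16% of all genes passed. In the test of the progenitor difference between E11 and E10, Dtx4 (1.43, SE 0.25) and Mfng (0.83, SE 0.20) passed out of 31 (0.824% of all genes).

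In endothelium-high pixels Notch4, the receptor known from endothelium, was higher (log2 0.77, SE 0.15, adjusted p = 0.0011), as was Heyl (0.99, SE 0.17, adjusted p = 0.00015), a Hey-family repressor. Lower were 5 of the 30 tested, with Hes6 (-0.45), Spen (-0.20) and Dner (-0.56) having the smallest adjusted p, where 12.9% of all genes passed in either direction. Dll4 and Hey2, the arterial ligand and effector, were among the 7 list genes with too few counts to test there; Dll4 was 1.1 to 3.3 CPM per library. In the stage, width and somite comparisons 1 list gene passed, Maml2, lower at 10 than at 25 µm in E11 (-1.67, SE 0.36). In antibody-high pixels 0 of 32 passed.

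The Notch1 antibody, a DNA-tagged antibody counted in the same pixels, was measured in 4 E10 sections as its share of all antibody tags in a pixel. Its share over tissue was 4.0% in 10 µm replicate 2, 2.27% in 25 µm replicate 1, 4.66% in 50 µm replicate 1 and 4.44% in 50 µm replicate 3. In pixels below the tissue cutoff it was 3.76%, 2.04%, 3.55% and 4.19% in the same order. That cutoff was set on transcript counts alone, so these pixels may still hold tissue. The tissue value was above that of the other pixels in 4 of 4 sections. In the 25 µm section the exact binomial 95% intervals overlapped (2.25% to 2.29% in tissue, 1.797% to 2.301% below the cutoff). It ranked 9, 18, 9 and 11 among the 22 antibodies.

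Between tissue pixels the share varied beyond counting error, with an SD 1.25, 1.74, 1.59 and 2.82 times what the tag counts alone would give. Its Moran's I was 0.22 to 0.48. In progenitor-high pixels the share was 4.10%, 2.48%, 4.88% and 4.49%, against 3.96%, 2.19%, 4.597% and 4.42% in the rest, higher in 4 of 4 sections (mean log2 ratio 0.08, SD 0.07, n = 4). It was higher in 3 of 4 with the top 10% of pixels or with 8-neighbour scores, and counted per transcript the ratio turned to -0.03 with 2 of 4 higher. In neuron-high pixels it was higher in 4 of 4 (0.06, SD 0.08), with a log2 ratio of 0.0015 in the 25 µm section and 0.18 in 50 µm replicate 3. The share was higher in 3 of 4 with the top 10% of pixels, with 8-neighbour scores or counted per transcript. In endothelium-high pixels it was 3.90%, 2.08%, 4.50% and 4.28% against 4.03%, 2.32%, 4.71% and 4.48%, lower in 4 of 4 (-0.08, SD 0.05). Counted per transcript this ratio also turned, to 0.03 with 2 of 4 higher. In somite-high pixels it was higher in 2 of 4 (-0.02, SD 0.05). With 4 sections the exact two-sided sign-flip permutation test cannot go below p = 0.13. It gave that value for progenitor, neuron and endothelium classes (adjusted over the 4 classes, 0.167) and 0.625 for somite.

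Antibody-high pixels, the top 25% by Notch1 share in each section, held the antibody at 5.18%, 3.24%, 5.43% and 5.61% of tags, against 3.62%, 1.97%, 4.35% and 4.07% in the rest, which is what chose them. Notch1 transcript was higher there in 3 of 4 sections, with a median of 59.5 CPM (range 29.1 to 90.7) against 53.6 CPM (25.1 to 78.7). The log2 difference was 0.15 (SE 0.12, adjusted p = 0.869, edgeR), so it did not pass. Progenitor markers were higher in antibody-high pixels in 4 of 4 sections, and endothelium, red cell and mesenchyme markers were lower in 4 of 4. Neuron markers were higher there in only 1 of 4 sections (median 2165 against 2301 CPM). None of the 10 genes passed in this comparison, where 0.259% of all genes did. At an unadjusted p under 0.05 there were 2 (7.2% of all genes), Dll1 (0.30, SE 0.14) and Hes1 (0.21, SE 0.10), and DESeq2 also called 0. Hes5 passed when 50 µm replicate 3 was left out (0.48, adjusted p = 0.0493), against 0.25 (SE 0.12) with it.

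Over tiles, the antibody share had a weak positive relation to Notch1 transcript in 4 of 4 sections, with r of 0.19, 0.14, 0.22 and 0.19 over 100, 79, 45 and 46 tiles. It was also positive in 4 of 4 for Hes5 (0.17 to 0.50, mean 0.28) and Dll1 (0.05 to 0.21), and in 3 of 4 for Dll3 (mean 0.21) and Lfng (0.09). For Notch2, Notch3, Jag1, Hes1 and Hey1 the mean r lay between -0.11 and 0.01. Notch1 transcript therefore did not have the largest mean Pearson r with the Notch1 antibody among the members. Hes5 and Dll3 had larger means, but not a larger r in every section. In the section order above, Hes5 stood at 0.17, 0.25, 0.50 and 0.20, and Dll3 at -0.02, 0.03, 0.49 and 0.34. Hes5 was below Notch1 transcript in the section with 100 tiles, and Dll3 in those with 100 and 79 tiles. By Spearman rank correlation Notch1 transcript stood at 0.17, 0.12, 0.30 and 0.25, and Hes5 at 0.12, 0.24, 0.40 and 0.10. Dll3 stood at 0.01, 0.02, 0.42 and 0.27. By rank, Hes5 was thus below Notch1 transcript in the sections with 100 and 46 tiles, so the order depends on the measure. In the section with 79 tiles, Notch1 was at 26.2 CPM and Hes5 at 119 CPM. The part of such count differences in r was not tested.

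Other antibodies had larger r with the Notch1 antibody than any member did. Folate-Receptor had a mean r of 0.75 (0.57 to 0.91), Ly-6A-E 0.73 and CD49d-ITGA4 0.57. Conversely, among the 22 antibodies, Notch1 ranked 2, 7, 2 and 5 for its r with Notch1 transcript. Among antibodies each set against the transcript of its own gene, the Notch1 pair ranked 4 of 14, 5 of 11, 3 of 14 and 6 of 14. The median r of those pairs was 0.11, 0.13, 0.01 and 0.11. The share was also related to the transcript count of the tile (mean r 0.27) and to progenitor markers (0.36), and inversely to mesenchyme (-0.35) and endothelium markers (-0.25). Shares of 1 pixel sum to a whole, so antibodies are not independent of each other. The part of depth and of shared tag behaviour was not tested. The genes most like the antibody were H2afv (0.41), Hnrnpc and Pnisr (0.38 each), none of them in the pathway lists.

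**Figure D4:**
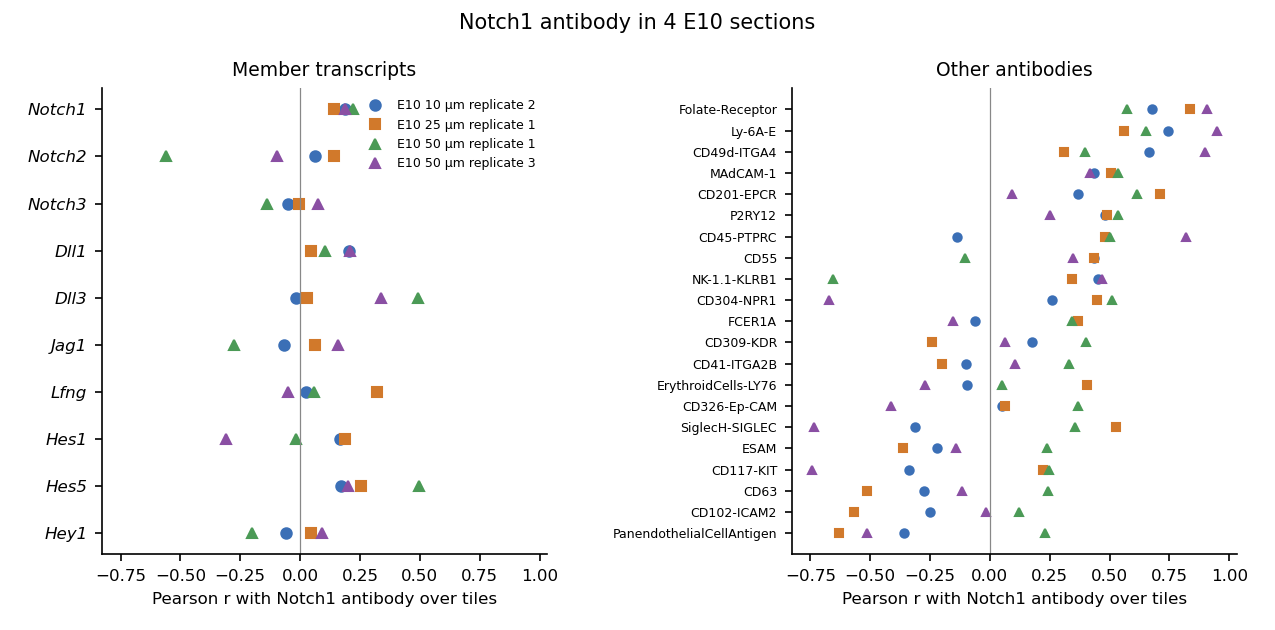
Pearson r over tiles between the Notch1 antibody share and each member transcript (left) or each other antibody (right) in the 4 E10 sections. Notch1 transcript lies at 0.14 to 0.22, while Folate-Receptor lies at 0.57 to 0.91.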

How the data were processed

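Frozen mouse embryo sections were barcoded on a grid of 50 by 50 pixels; 11 transcript and 4 antibody tables were used. The authors deposited raw counts per pixel and gene or antibody. CASAVA 1.8.2 is named per the submitters' processing notes, as is the build GRCh38, a human assembly name; the counts carry mouse gene symbols, so the build behind them is unknown, and gene positions here are GENCODE M21 (GRCm38). The aligner and counter are not given in the sources used here. Counts of tissue pixels were summed per library or per library and pixel class, and tested with edgeR 4.0.16 (TMM, filterByExpr, robust quasi-likelihood; R 4.3.3), with library as a block for classes; SE is the log2 change divided by the square root of F. Stage fits had 5 residual degrees of freedom, class fits 10, the interaction 8 and the antibody fit 3. DESeq2 1.42.0 was an alternative. The code was tested on simulated data. The deposited antibody counts were used as shares of a pixel's tags, with at least 50 tags a pixel. Named genes are the 10 members, up to 5 called genes per comparison from the 37-gene pathway list (smallest adjusted p), and the 3 genes most like each member. The members and all lists were chosen with earlier results of these data known. Intervals and limits at 0 counts cover counting error only.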

Additional observations from a re-analysis of the deposited data

Results flagged for a closer look

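The difference between progenitor marker-high pixels and the rest was larger at E11 than at E10 by a test of the difference itself (edgeR interaction term, adjusted over 12503 genes) for Hes5 (1.99 on the log2 scale), Dll1 (1.53), Lfng (1.44) and Notch1 (1.20). Leaving out either E11 25 µm library, or keeping the 10 and 25 µm libraries alone, left Hes5 as the single call among them. Hes5 was also the single call with the top 10% of pixels.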

How the results depend on the processing

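For single members, 1681 alternative values were computed. Of these 1551 kept their side of the threshold, 52 lost and 78 gained a call, and none of the called values changed sign; 65 values uncalled in both settings had the other sign. In progenitor-high pixels Hes5, Notch1, Dll1 and Lfng passed in every alternative in which they could be tested. Counts of members called changed as follows. Thinning pixels to 500 counts left 4 to 6 of the 10 testable and gave 1 in progenitor, 0 in neuron and 1 in endothelium classes; progenitor-only against neuron-only had none to test. With no filter on low counts there were 1 (E11 against E10), 4 (E12), 1 (E10 widths), 4 (E11 widths), 4 (endothelium) and 4 (somite). DESeq2 gave 3 (E12), 1 (E10 widths), 2 (E11 widths) and 1 (endothelium). All pixels gave 0 for E12. The top 10% of pixels gave 5 in endothelium, and scoring with 8 neighbours gave 5 in endothelium and 4 in somite. Leaving out 1 library gave 0 to 2 (E11 against E10, 2 without E11 10 µm replicate 1), 0 to 5 (E12, 5 without either E11 10 µm library), 0 to 1 (E10 widths), 0 to 4 (E11 widths, 4 without 10 µm replicate 1), 1 to 5 (endothelium, 5 without E11 10 µm replicate 1), 0 to 3 (somite) and 0 to 1 (antibody-high). The E11 replicate block, by the numbers in the titles, gave 0 for E11 widths. For the interaction, alternatives chosen after seeing the data gave 1 to 5 without 1 library, 1 with 10 and 25 µm alone, 2 with 8 neighbours and 1 in the top 10%. The Notch1 antibody counted per transcript, not as a share of tags, reversed in progenitor-high (mean log2 ratio -0.0307) and endothelium-high pixels (0.0307), and the somite value ran from -0.0369 to 0.00113 over sections left out, above 0 without E10 50 µm replicate 1. The cause of these changes was not tested.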
